A study of Mus musculus with 20 samples.

Results

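The comparison described here is the effect of dietary fat on the heart, taken over both levels of dietary protein. All 20 libraries of the series entered it: the 10 mice on a high-fat diet (HF and HF + LP) were set against the 10 mice on a low-fat diet (NP and LP), with the casein content of the diet as a covariate. HF and NP mice received 20% casein, and HF + LP and LP mice 5% casein, so that the fat level was varied in 10 mice at each protein level. By the diet composition of the study, each high-fat diet also held less carbohydrate than the low-fat diet with the same casein content. The parts of more fat and less carbohydrate therefore cannot be told apart, and the effect of fat stands here for both. Each diet was fed to 5 middle-aged male mice, whose strain is not named in the sources used here. The labels give every mouse an age of 18 months, whereas the methods of the study place tissue collection at a younger age. Left ventricular tissue was frozen. Messenger RNA was counted from its 3′ end, so a longer transcript does not give a larger count. The study asked how protein restriction and obesity act on the aging heart, and the present comparison asks which transcripts moved with fat in the same direction at both protein levels.

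The heart draws most of its energy from fatty acids. These enter the muscle cell through the transporter CD36, are carried by the binding protein FABP3, and are burned in mitochondria and peroxisomes. Fatty acids also bind the nuclear receptors of the PPAR family, which act as pairs with RXR on DNA and raise the transcription of genes for fat uptake and oxidation. In obesity the heart is known for a high use of fat, a lower response to insulin, and a larger number of immune cells.

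Of 13991 genes tested, 130 were called for the effect of fat, 30 higher and 100 lower on the high-fat diets. A call required an adjusted p under 0.01 in the quasi-likelihood test of edgeR, with p-values adjusted by Benjamini-Hochberg, together with an average above 50 normalized counts, which 10159 genes reached. The called genes were 0.214% of the tested genes for the higher and 0.715% for the lower direction, and the median log2 fold change over all tested genes was −0.02. At an unadjusted p under 0.05 stood 1133 higher and 1749 lower genes, the background for the counts of each gene list. DESeq2 with the same model and call rule gave 153 higher and 232 lower genes. Called higher were, among others, the lipid genes Rbp7, Cd36, and Hsd17b11, the folate enzyme Mthfd2, the chemokines Ccl8 and Ccl6, and the matrix protein Sparc. Called lower were, among others, the long non-coding RNAs 5430431A17Rik and Neat1, the histone methyltransferase Kmt2d, the glucose-responsive factor Mlxipl, and the myosins Myh11 and Myh6.

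High-fat mice weighed 53.7 ± 6.83 g and low-fat mice 37.8 ± 7.77 g (mean ± SD, n = 10). The difference was 15.9 g at each casein level (two-sided exact permutation test within casein levels, p = 3.15e-05, the smallest p these arrangements allow). NP mice weighed at most 52.3 g and HF mice at least 56.1 g, and LP mice at most 36.9 g and HF + LP mice at least 41.2 g. With body weight added to the model, 2 genes were called, 5430431A17Rik and Myh11. Since weight did not overlap between the fat levels at either casein level, the parts of diet and body weight cannot be told apart for any gene, these 2 included. Total counts per library ran from 12559607 to 23331907. Transcripts of mitochondrial DNA took 41.0 ± 3.33% of the counts in high-fat and 41.7 ± 3.46% in low-fat mice (exact permutation p = 0.648). The difference had opposite signs at the casein levels, −4.45 percentage points at 20% casein, where HF mice (38.1 to 39.8%) lay below NP mice (41.3 to 47.1%), and 3.02 at 5% casein, where the diets overlapped.

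Some libraries stood apart by the tissue they held, and the mice are named here by diet and animal number. The fat cell hormone Adipoq was at 82.3 CPM, counts scaled to library totals, in LP mouse 13 and at 31.4 in LP mouse 20, against 0.107 to 18.0 in the other 18 mice. The atrial factor Bmp10 was at 933, 102, and 257 CPM in LP mice 13, 20, and 15, and at most 7.08 in the other mice. The summed level of 6 atrial markers ranged from 147 to 18100 CPM over the low-fat and from 53.0 to 12500 over the high-fat mice, although the labels name left ventricle. It was highest in LP mouse 13 (18100 CPM) and HF mouse 1 (12500), followed by LP mouse 15 (5350), HF + LP mouse 3 (5260), and HF mouse 3 (4820), with LP mouse 20 at 1870. Nppa, an atrial hormone, was at 8460 CPM in HF mouse 1 and at 12300 in LP mouse 13. Without HF mouse 1, 111 genes were called, 103 of them among the 130. Ventricular identity was present in every library, with the ventricular light chain Myl2 between 2080 CPM in LP mouse 13 and 8590 in LP mouse 5. Without LP mice 13 and 20, 178 genes were called, 106 of them among the 130. With the summed atrial markers as a covariate, 118 were called, 103 of them among the 130.

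The mice at 20% casein and those at 5% casein are different animals, so each set gives its own estimate of the fat effect. At 20% casein 37 genes were called (0.264% of the tested genes), and at 5% casein 14 genes (0.1%), with 7 higher and 30 lower in the first and 7 higher and 7 lower in the second. All 37 genes called at 20% casein had the same sign at 5% casein, and 32 of them had an unadjusted p under 0.05 there. All 14 genes called at 5% casein had the same sign at 20% casein, 11 of them with an unadjusted p under 0.05. Of all 13991 tested genes, 8572 had the same sign at both levels, and an unadjusted p under 0.05 was reached by 2227 at 5% and by 1831 at 20% casein. The counts at a single casein level were unstable, since leaving out 1 mouse moved them between 20 (without NP mouse 6) and 69 (without LP mouse 13) at 20% casein and between 1 (without HF + LP mouse 2) and 16 (without HF + LP mouse 3) at 5% casein. Called at both levels were 6 transcripts, all lower: 5430431A17Rik, Gm42972, Gm38380, Gm42432, Kmt2d, and Neat1. These calls come from the model of all 4 diets, whose 20 libraries share 1 estimate of the spread. Fitted on its own 10 libraries, 5% casein gave 0 calls and 20% casein 61, so that no gene was called at both levels in that way.

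Over all tested genes, 516 had an unadjusted p under 0.05 and the same sign at both casein levels (3.69%), 121 of them higher and 395 lower, whereas 25 had opposite signs. When each casein level was fitted on its own 10 libraries, these counts were 439 and 26. All 130 genes called for the fat effect had the same sign at both levels, which the pooled test favours by its construction. The size of the effect was larger at 20% casein for 94 of the 130. The test of the difference between the casein levels called 0 genes in edgeR (smallest adjusted p = 0.258), with 1003 genes at an unadjusted p under 0.05, and DESeq2 called 1. Across the 10159 genes above 50 normalized counts on average, the fold changes at the 2 casein levels had a Pearson r of 0.238 and a Spearman rho of 0.369, a description across genes, which are not independent replicates.

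**Figure D1:**
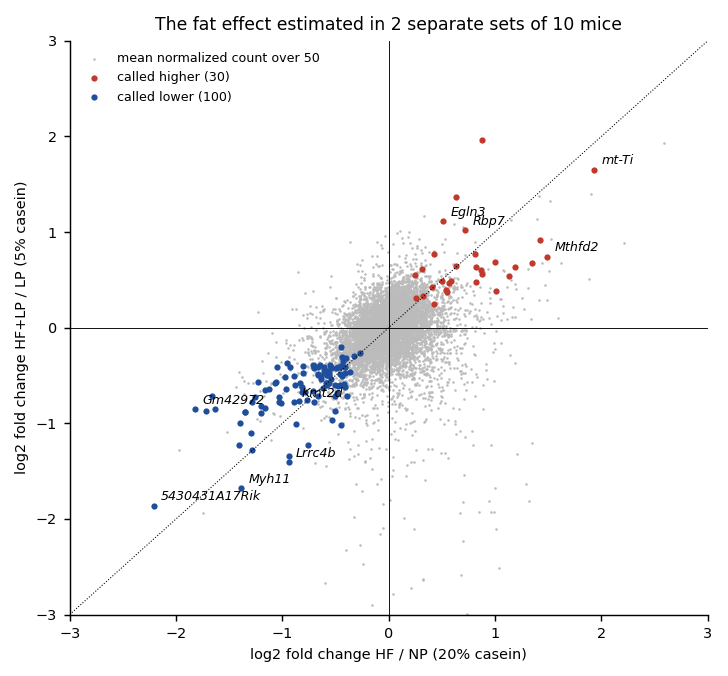
Log2 fold change of HF over NP (x axis) against that of HF + LP over LP (y axis), 1 point per gene with a mean normalized count over 50. The dotted line marks equal effects, and 20 genes lie outside the range drawn. The 30 genes called higher (red) sit in the upper right and the 100 called lower (blue) in the lower left quadrant.

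In 5 genes with a mean normalized count over 50 (0.0492%), all 10 high-fat mice lay above all 10 low-fat mice, and in 19 genes (0.187%) all lay below. Of these, 4 and 18 were called. The 4 higher ones were Rbp7, Egln3, Serf1, and the mitochondrial transfer RNA gene mt-Ti. The lower ones were led by 5430431A17Rik, Kmt2d, Gm42972, and Neat1.

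Rbp7 had the smallest p of the 30 genes called higher. It encodes a retinoid-binding protein of the capillary endothelium and lies on chromosome 4 of GRCm38 from 149449687 to 149454978. Its normalized count, the count scaled to a common library size, had a lowest value of 338, a median of 412, and a highest value of 574 in high-fat mice, and 186, 228, and 323 in low-fat mice. The groups did not overlap, and the log2 fold change was 0.87 (standard error, SE, 0.12, edgeR adjusted p = 0.000326), with 0.72 at 20% and 1.02 at 5% casein. The summed level of 8 endothelial markers was 77.8 CPM higher on the high-fat diets (exact permutation p = 0.0922, or 0.0132 without LP mouse 5 and 0.0318 without HF + LP mouse 1, unadjusted). At 20% casein it was 154 CPM higher, with HF mice at 719 to 863 and NP mice at 631 to 707, and at 5% casein 2.08 CPM higher, with overlap. The part of endothelial content in the values of Rbp7, Cd36, Sparc, and Emp1 was not tested.

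Cd36, the main fatty acid transporter of heart muscle and its capillaries (chromosome 5, 17781690 to 17888801), was at 8930, 10300, and 10700 normalized counts (lowest, median, highest) in high-fat mice and at 5650, 8090, and 9050 in low-fat mice. Apart from HF mouse 1, the lowest high-fat value, every high-fat mouse lay above every low-fat mouse. The log2 fold change was 0.40 (SE 0.08, edgeR adjusted p = 0.00735). The call was a close one, lost in 13 of the 20 fits that left out 1 mouse each (highest edgeR adjusted p = 0.0188, without LP mouse 15) and without LP mice 13 and 20 together (log2 fold change 0.30, adjusted p = 0.0104). Fabp3, the carrier of fatty acids in the cytosol of muscle, ranged from 57600 to 87100 in high-fat and from 23400 to 66400 in low-fat mice. The value of 23400 belonged to LP mouse 13. The log2 fold change of Fabp3 was 0.59 and was not called (edgeR adjusted p = 0.0199), and it was 0.44 without LP mice 13 and 20.

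Hsd17b11, a dehydrogenase of the lipid droplet surface, rose by 0.60 on the log2 scale (SE 0.10, edgeR adjusted p = 0.00151), from a median of 600 to a median of 900 normalized counts.

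Of 29 tested PPAR-responsive genes, 2 were called higher, Cd36 among them, and 0 lower, and 12 had an unadjusted p under 0.05 with a positive and 0 with a negative fold change. Their median log2 fold change was 0.17, with 0.11 at 20% and 0.38 at 5% casein. Pdk4, the kinase that turns off glucose oxidation, had the largest fold change of this list (1.55, SE 0.65) and was not called (edgeR adjusted p = 0.176). Its normalized count ran from 84.3 to 2550 in high-fat and from 41.8 to 562 in low-fat mice, and it was chosen after its values had been seen. Among 22 genes of mitochondrial fatty acid oxidation 0 were called, 6 had an unadjusted p under 0.05, all 22 had a positive fold change, and the median was 0.16. Decr1, which prepares unsaturated fatty acids for oxidation, had a log2 fold change of 0.44 (edgeR adjusted p = 0.0181), and the carnitine carrier Slc25a20 one of 0.36 (adjusted p = 0.0248). Both were further from 0 at 5% casein (0.73 and 0.60) than at 20% casein (0.15 and 0.12). LP mouse 13 had the lowest count of all mice for both genes (3550 and 1390). Without LP mice 13 and 20 the fold changes over both levels were 0.34 and 0.28 (edgeR adjusted p = 0.0363 and 0.0412). The part of these 2 mice in the larger values at 5% casein was not tested.

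In the list of peroxisomal oxidation, with 18 tested genes, 0 were called, and 6 had an unadjusted p under 0.05 upward and 1 downward. Pex11a, a factor of peroxisome division, had a log2 fold change of 0.55 (edgeR adjusted p = 0.0183) and Ech1, an isomerase of fatty acid oxidation, one of 0.53 (adjusted p = 0.0442, and 0.38 with an adjusted p of 0.082 without LP mice 13 and 20). Of 24 genes of fatty acid uptake and lipid droplets, 9 had an unadjusted p under 0.05 upward and 2 downward. Mgll, which releases fatty acids from monoglycerides, had a log2 fold change of 0.43 with an adjusted p of 0.0101 from edgeR, just short of a call. Nuclear-encoded subunits of respiratory complex I, 37 tested, had a median of 0.16, with 12 upward and 1 downward at an unadjusted p under 0.05 and 0 called.

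**Figure D2:**
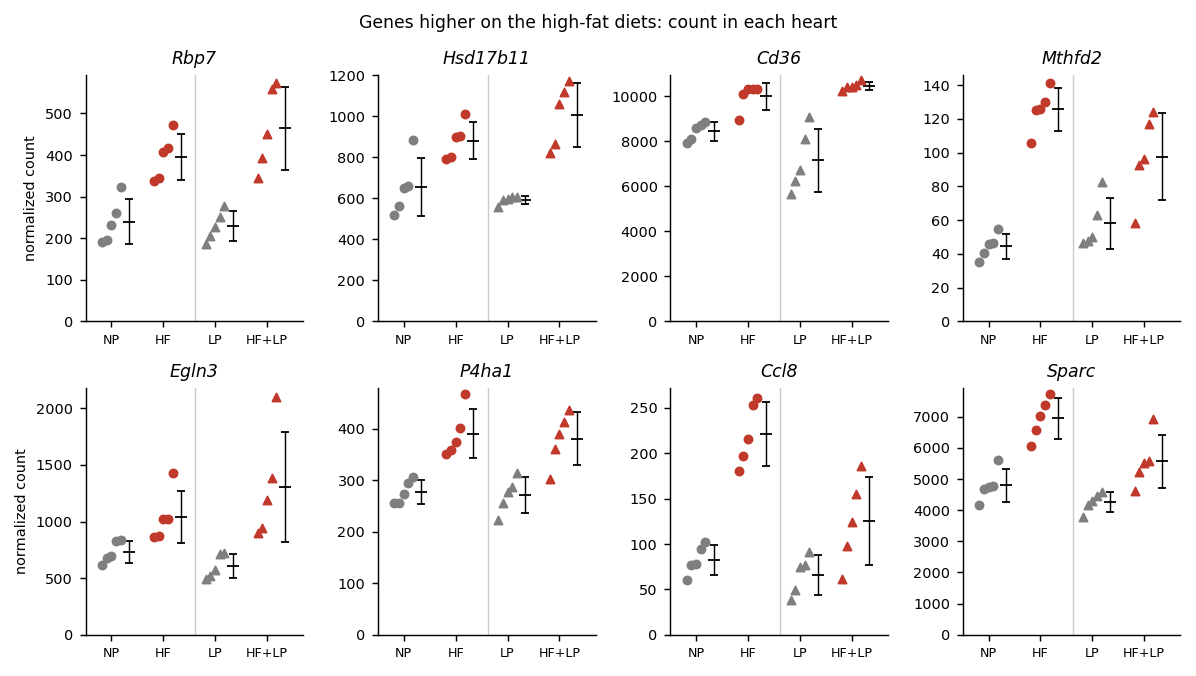
Normalized count (y axis, from 0) in each heart for 8 genes that were called higher, by diet group (x axis). Circles are mice at 20% and triangles mice at 5% casein, grey is low and red is high fat, and bars give the mean ± SD of 5 mice. For Rbp7 and Egln3 all red points lie above all grey points, and for Ccl8 the HF mice lie between 180 and 261.

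Sequence around the start of transcription was read from RefSeq (GRCm38.p6), in windows from 250 bases before to 50 bases after a start, for 10316 tested genes with 13199 windows. The letters searched on both strands were AGGNCA, the half-site that receptors of the PPAR and RXR family read, and ACGTG, the core of the element read by the hypoxia-inducible factors, which also lies inside CACGTG. Of all windows, 52.4% held AGGNCA and 24.8% held ACGTG. Among genes called higher, 65.2% of 23 windows held the first and 21.7% the second, and among genes called lower 54.1% and 21.2% of 85 windows. Of 24 windows of PPAR-responsive genes, 91.7% held AGGNCA and 8.33% ACGTG. A pair of half-sites in the same direction with 1 base between them, the arrangement PPAR and RXR bind, was in 0.205% of all windows, in Ccl6 and Nisch among the called genes, and in 0 of the PPAR-responsive ones. A match is a run of letters and not a measured binding site.

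The windows of Cd36 and Rbp7 are shown because these called lipid genes are described above, and those of Bnip3, P4ha1, and Egln3 as called genes known to respond to low oxygen, picked because their windows hold ACGTG, which was no more frequent among genes called higher than in all windows. Capitals mark AGGNCA or ACGTG on either strand. The windows are chr5:17835847-17836146 for Cd36, chr4:149454919-149455218 for Rbp7, chr7:138909457-138909756 for Bnip3, and chr12:54203825-54204124 for Egln3, all on the minus strand, and chr10:59323046-59323345 on the plus strand for P4ha1.
Cd36: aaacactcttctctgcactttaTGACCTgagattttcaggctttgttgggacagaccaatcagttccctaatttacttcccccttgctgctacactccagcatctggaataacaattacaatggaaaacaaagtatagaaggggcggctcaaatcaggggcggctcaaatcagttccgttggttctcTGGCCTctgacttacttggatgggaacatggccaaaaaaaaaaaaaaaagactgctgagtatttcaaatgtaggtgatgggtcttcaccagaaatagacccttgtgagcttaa
Rbp7: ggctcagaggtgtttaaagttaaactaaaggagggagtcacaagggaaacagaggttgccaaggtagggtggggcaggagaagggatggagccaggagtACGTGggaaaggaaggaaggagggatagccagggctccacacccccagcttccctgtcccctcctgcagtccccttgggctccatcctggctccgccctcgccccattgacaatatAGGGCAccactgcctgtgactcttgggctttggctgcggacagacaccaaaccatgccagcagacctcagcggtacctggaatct
Bnip3: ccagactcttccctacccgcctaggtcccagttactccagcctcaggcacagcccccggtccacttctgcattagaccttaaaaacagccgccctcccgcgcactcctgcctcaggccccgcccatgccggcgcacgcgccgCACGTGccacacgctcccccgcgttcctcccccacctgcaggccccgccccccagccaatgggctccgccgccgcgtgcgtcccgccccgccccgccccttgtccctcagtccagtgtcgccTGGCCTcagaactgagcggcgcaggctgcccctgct
P4ha1: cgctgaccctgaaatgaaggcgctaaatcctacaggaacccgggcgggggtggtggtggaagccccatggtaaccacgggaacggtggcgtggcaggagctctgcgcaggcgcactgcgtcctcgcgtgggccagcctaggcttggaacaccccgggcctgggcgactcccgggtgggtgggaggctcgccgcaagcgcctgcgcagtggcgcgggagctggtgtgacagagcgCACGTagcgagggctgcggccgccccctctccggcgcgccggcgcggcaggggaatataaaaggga
Egln3: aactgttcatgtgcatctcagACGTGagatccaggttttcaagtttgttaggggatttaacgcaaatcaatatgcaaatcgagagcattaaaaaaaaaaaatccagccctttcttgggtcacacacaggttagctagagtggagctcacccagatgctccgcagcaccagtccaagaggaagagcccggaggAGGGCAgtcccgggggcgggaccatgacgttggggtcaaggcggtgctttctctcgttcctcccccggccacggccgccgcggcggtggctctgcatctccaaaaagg

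Bnip3, a receptor of the mitochondrial outer membrane that marks mitochondria for autophagy, rose, with nearly the same estimate at both protein levels. Its normalized count was 2100, 2620, and 2900 (lowest, median, highest) in high-fat and 1770, 1860, and 2250 in low-fat mice, a log2 fold change of 0.41 (SE 0.07, edgeR adjusted p = 0.00237), with 0.41 at 20% and 0.42 at 5% casein. The ranges overlapped only between 2100 and 2250. P4ha1, a subunit of the enzyme that hydroxylates collagen, was at 303, 381, and 467 in high-fat and at 223, 275, and 313 in low-fat mice (log2 fold change 0.49, SE 0.08, edgeR adjusted p = 0.00151), with a like size at both levels (0.50 and 0.49). Egln3, a prolyl hydroxylase that marks hypoxia-inducible factors for degradation, was at 865, 1020, and 2100 in high-fat and at 496, 686, and 837 in low-fat mice, without overlap. Its log2 fold change was 0.81 (SE 0.15, edgeR adjusted p = 0.00428), and the call was lost without LP mouse 15 or HF mouse 2 (adjusted p = 0.0117 and 0.0107). Egln3 and the grouping of these genes by their response to oxygen were chosen after their values had been seen, and no list of such genes was tested. Slc2a1, a glucose transporter also known to respond to low oxygen, had a log2 fold change of −0.45 and was not called.

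Of 30 tested genes of autophagy and mitophagy, Bnip3 was the only call, and 11 upward and 3 downward fold changes had an unadjusted p under 0.05 (median 0.09). Map1lc3b, the ubiquitin-like protein of the autophagosome, had a log2 fold change of 0.31 (edgeR adjusted p = 0.0553) and Calcoco1, a receptor of selective autophagy, one of −0.74 (adjusted p = 0.0363). Among 22 genes of the unfolded protein response and of folding in the endoplasmic reticulum, 0 had an unadjusted p under 0.05, and the median was 0.06.

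Mthfd2, the mitochondrial enzyme of folate metabolism that is induced by the stress factor ATF4 (chromosome 6, 83305691 to 83325908), was at 58.3, 121, and 141 normalized counts in high-fat and at 35.2, 47.3, and 82.5 in low-fat mice. A single high-fat mouse, the lowest of HF + LP at 58.3, lay within the low-fat range. The effect of fat over both levels had an SE of 0.16 and an edgeR adjusted p of 0.000421, and its log2 fold change was 1.49 at 20% and 0.74 at 5% casein. Gdf15, a stress hormone and another ATF4 target, had a log2 fold change of 1.24 and was not called (edgeR adjusted p = 0.0155). The list of ATF4 targets and one-carbon metabolism was mixed: of 28 tested genes, these included, 5 upward and 2 downward had an unadjusted p under 0.05, and Mthfd1l, which works next to Mthfd2 in the mitochondrial folate path, had a log2 fold change of −1.50 (edgeR adjusted p = 0.0204). LP mice 2 and 5, at 7.98 and 9.23 normalized counts of Mthfd1l, lay within the HF + LP range of 7.61 to 27.8, and the other LP mice at 64.3 to 83.2. Without LP mice 13 and 20 the value was −1.15 (edgeR adjusted p = 0.0666).

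Among genes of immune cells, Ccl8 and Ccl6, chemokines that draw monocytes and are made by macrophages, were called. Ccl8 (chromosome 11, 82115185 to 82116799) was at 180, 197, 216, 253, and 261 normalized counts in HF and at 60.5, 77.4, 77.6, 95.0, and 102 in NP mice. HF + LP mice had 61.5, 98.3, 124, 155, and 186, and LP mice 38.0, 49.1, 74.4, 77.2, and 91.1. At 5% casein the lowest HF + LP mouse lay within the LP range, and at 20% casein the diets were apart. The log2 fold change was 1.17 (SE 0.19, edgeR adjusted p = 0.00114). Ccl6 rose by 0.70 (SE 0.12, adjusted p = 0.00207), with 1.01 at 20% and 0.38 at 5% casein, and Ms4a6c, a membrane protein of monocytes, by 0.84 (SE 0.17, adjusted p = 0.00924). The call of Ms4a6c was lost in 14 of the 20 fits that left out 1 mouse (highest adjusted p = 0.022). These tissue counts cannot tell more cells of a type from more RNA per cell.

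Of 31 tested macrophage and monocyte markers, 2 were called higher and 0 lower, and 13 had an unadjusted p under 0.05, all upward. Their median log2 fold change was 0.33, but 0.56 at 20% and 0.09 at 5% casein, and it was 0.48 without LP mice 13 and 20. Cx3cr1, the fractalkine receptor of macrophages, had a log2 fold change of 0.83 (edgeR adjusted p = 0.0103). Among 44 interferon response genes 0 were called in edgeR, 28 had an unadjusted p under 0.05, all upward, and the median was 0.65, with 1.03 at 20% and 0.13 at 5% casein. Rsad2, an antiviral enzyme induced by interferon, had the smallest p of the list. Its counts were 966, 970, 1410, 1870, and 2760 in HF, 337, 578, 659, 677, and 970 in NP, 737, 795, 849, 896, and 940 in HF + LP, and 253, 510, 620, 633, and 754 in LP mice. The highest NP mouse reached the lowest HF mice at 966 and 970, and 1 LP mouse lay above the lowest HF + LP mouse. The change came to 0.96 on the log2 scale (SE 0.22, edgeR adjusted p = 0.0167). The test of the difference between casein levels called 0 of all 13991 tested genes in edgeR. Its 0 calls among the interferon genes therefore do not show that the levels were alike. Ifi205, an interferon-inducible gene that is not in the list and was chosen after its values had been seen, was called higher (log2 fold change 0.74, edgeR adjusted p = 0.00703), and the call was lost in 14 of the 20 fits that left out 1 mouse.

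Matrix genes were led by Sparc, a collagen-binding protein that fibroblasts and endothelial cells secrete (chromosome 11, 55394500 to 55423183). It was at 4610, 6320, and 7730 normalized counts in high-fat and at 3780, 4520, and 5620 in low-fat mice, a log2 fold change of 0.46 (SE 0.08, edgeR adjusted p = 0.00174), with 0.54 at 20% and 0.39 at 5% casein. Of 33 tested genes for collagens and matrix, 10 had an unadjusted p under 0.05, all upward, with a median of 0.37 at 20% and −0.08 at 5% casein. Col3a1, a fibrillar collagen, had a log2 fold change of 0.87 at 20% and 0.26 at 5% casein. Summed fibroblast markers differed by 66.9 CPM between the fat levels (exact permutation p = 0.665), by 324 at 20% and by −191 at 5% casein. With 1 mouse left out the pooled value ran from 7.72 (without LP mouse 2) to 148 (without LP mouse 13). Their part in the values of the matrix genes was not tested.

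Other called higher genes were Emp1, a membrane protein of epithelial and endothelial cells (log2 fold change 0.91), Clec3b, the plasminogen-binding tetranectin (0.52), Serf1 (0.54), and Cdkn1a, the cell cycle inhibitor p21 (1.02), each with an adjusted p under the threshold in edgeR. Cdkn1a kept its call in 4 of the 20 fits that left out 1 mouse. Grk5, a kinase that desensitizes beta-adrenergic receptors (0.64), and Gfpt2, the entry enzyme of the hexosamine path (0.72), were called as well and were chosen after their values had been seen. The enzyme Ogt, which attaches the product of that path to proteins, was called lower (−0.47) and was chosen likewise. The calls of Grk5 and Gfpt2 were lost in 13 and 5 of the 20 fits that left out 1 mouse.

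The strongest signal of the comparison lay in 5430431A17Rik, a long intergenic non-coding RNA on the plus strand of chromosome 7 from 44473538 to 44486138. NP mice had 289, 289, 302, 314, and 319 normalized counts and HF mice 55.9, 55.9, 56.0, 73.9, and 87.0. LP mice had 183, 224, 264, 270, and 379 and HF + LP mice 56.2, 64.1, 71.7, 83.7, and 86.6. The highest high-fat mouse at 87.0 lay well below the lowest low-fat mouse at 183. On the log2 scale the difference was −2.03 (SE 0.13, edgeR adjusted p = 5.38e-09), −2.21 at 20% and −1.86 at 5% casein, and no leave-out of a single mouse ended the call.

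Lrrc4b, a gene for a synaptic adhesion protein, lies 10186 bases upstream of 5430431A17Rik on the same strand (44429018 to 44463351) and fell with it. It was at 20.2, 47.5, and 61.1 normalized counts in high-fat and at 71.8, 95.4, and 147 in low-fat mice, without overlap (log2 fold change −1.17, SE 0.17, edgeR adjusted p = 0.000376). Whether RNA that runs past the annotated end of Lrrc4b was counted on its neighbour was not tested. Among the 128 called genes with coordinates in nuclear DNA there were 7 pairs within 50000 bases, and both members of each pair were lower. Of the 130 called genes 100 were lower, so most pairs would share a direction in any case, and no background for close pairs was computed. The pairs are not independent, since Gm42972, Gm42971, and Gm42970 pair with each other and A330023F24Rik and 9630010A21Rik overlap.

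Neat1, the RNA that builds nuclear paraspeckles (chromosome 19, 5824708 to 5845478), was at 4300, 5290, and 7980 normalized counts in high-fat and at 9190, 11100, and 14000 in low-fat mice. The groups did not overlap, and the log2 fold change was −1.04 (SE 0.11, edgeR adjusted p = 1.75e-05), −1.20 at 20% and −0.89 at 5% casein. Meg3, an imprinted non-coding RNA, fell by 0.71 (SE 0.12, adjusted p = 0.0024). Of 18 nuclear and long non-coding RNAs tested as a list, 2 were called lower and 0 higher, and 5 had an unadjusted p under 0.05, all downward (median −0.18).

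Of the 100 genes called lower, 30 are not annotated as protein-coding (30.3% of those with an annotation), against 2 of the 30 called higher and 3.57% of all genes with a mean normalized count over 50. Inside a protein-coding gene on the same strand lay 18 of these 30 (60%), against 105 of 362 (29%) genes not annotated as protein-coding with a mean normalized count over 50. For each of the 18 the transcript fell further than its host gene. The 18 were chosen because they were called lower and the hosts were not chosen by their change, which favours such a difference. The 15 hosts had log2 fold changes from −0.50 to 0.03 (median −0.17), 5 of them with an unadjusted p under 0.05, and 0 were called, whereas the 18 transcripts ranged from −1.32 to −0.53.

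Gm42972, Gm42971, and Gm42970 lie within Ank2, the gene of a membrane anchor of ion channels in heart muscle, on the minus strand of chromosome 3 between 127266673 and 127299673. Gm42972 had 172, 174, 178, 179, and 184 normalized counts in NP and 42.2, 51.4, 52.2, 52.4, and 53.4 in HF mice, and 121, 140, 142, 164, and 173 in LP and 68.7, 73.7, 82.7, 84.0, and 101 in HF + LP mice. The diets were apart at both levels, and the log2 fold change was −1.32 (SE 0.14, edgeR adjusted p = 1.44e-05). It was −1.82 at 20% and −0.85 at 5% casein, the difference with the smallest p of all genes (unadjusted p = 1.84e-05, adjusted p = 0.258). Gm42971 and Gm42970 were called lower as well (−1.24 and −0.90), and Ank2 itself had a log2 fold change of −0.34 (SE 0.10, edgeR adjusted p = 0.0646). Gm38380 within Ncoa2 (−1.20) and Gm42432 within Map4 (−1.28) fell too, beside −0.18 for Ncoa2 and 0.03 for Map4, whose sign turned when LP mouse 13 was left out. Whether the counted reads came from these transcripts or from unspliced RNA of the host was not tested.

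The 69 protein-coding genes called lower also had long transcripts. The longest annotated transcript had a median of 6487 bases among them (quartiles 4287 and 9147), 2231 bases among the 28 called higher (1677 and 3029), and 3537 bases among the 9787 protein-coding genes with a mean normalized count over 50 (2294 and 5034). The share of counts outside mitochondrial DNA in genes not annotated as protein-coding was 2.25 ± 0.861% in high-fat and 2.28 ± 0.763% in low-fat mice (exact permutation p = 0.933).

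**Figure D3:**
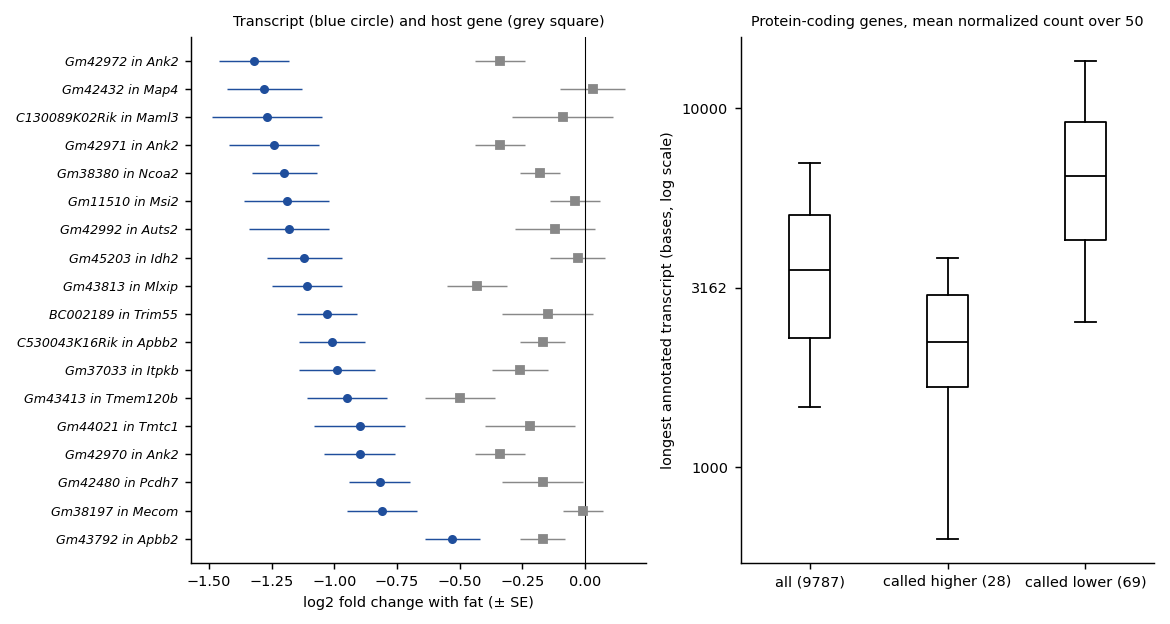
Left, log2 fold change with fat (x axis, ± SE) of the 18 called transcripts that lie within a protein-coding gene on the same strand (blue circles) and of their host genes (grey squares), each pair on its own line. Right, length of the longest annotated transcript (bases, log axis) of protein-coding genes with a mean normalized count over 50, as boxes of the quartiles with whiskers from the 10th to the 90th percentile. All blue circles lie below −0.5 and the host genes between −0.50 and 0.03, but only the transcripts were chosen by their call. The median length is 6487 bases for the genes called lower.

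Kmt2d, the methyltransferase that places the mark of active enhancers on histone H3 (chromosome 15, 98831669 to 98871204), had the smallest p of the named protein-coding genes. It was at 223, 277, and 318 normalized counts in high-fat and at 420, 486, and 543 in low-fat mice. The groups did not overlap, and the log2 fold change was −0.84 (SE 0.07, edgeR adjusted p = 1.36e-06), −0.89 at 20% and −0.78 at 5% casein. Setd1a and Kmt2b, methyltransferases of the same histone residue, were also called lower (−0.58 and −0.44) and were chosen after their values had been seen. Safb2, a scaffold attachment factor (−0.58), and Leng8 (−0.81) were called lower too. The core subunits Polr2a of RNA polymerase II (−0.51) and Prpf8 of the spliceosome (−0.55) were called lower and were likewise chosen after their values had been seen. The calls of Setd1a, Kmt2b, Polr2a, and Prpf8 were close ones, lost in 13, 16, 13, and 12 of the 20 fits that left out 1 mouse.

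Mlxipl, which encodes ChREBP, a factor that turns on glycolytic and lipogenic genes in response to glucose (chromosome 5, 135089890 to 135138382), was at 151, 196, and 241 normalized counts in high-fat and at 247, 301, and 368 in low-fat mice. The groups did not overlap, and the log2 fold change was −0.69 (SE 0.09, edgeR adjusted p = 0.000175), with −0.71 at 20% and −0.66 at 5% casein. Mlxipl was the only call among 17 lipogenic genes. The median of that list was −0.57, with 0.11 at 20% and −0.99 at 5% casein, and 0.07 without LP mice 13 and 20, and the part of the fat cell transcripts of these libraries was not tested. Fasn, the fatty acid synthase, was at 1070 and 193 CPM in these mice and at 6.33 to 23.9 in the other 18.

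Insulin signaling had 21 tested genes with a median of −0.14, of which 5 had an unadjusted p under 0.05 downward and 1 upward. Insr, the insulin receptor, ranged from 452 to 644 normalized counts in high-fat and from 493 to 847 in low-fat mice, a log2 fold change of −0.38 (SE 0.08, edgeR adjusted p = 0.0121), and was not called. Its adjusted p was 0.00181 without LP mice 13 and 20. The insulin-regulated glucose transporter Slc2a4 had a log2 fold change of −0.25 and the basal transporter Slc2a1 one of −0.45, neither of them called (edgeR adjusted p = 0.0943 and 0.0743). Of 27 genes of glucose uptake and glycolysis, 5 had an unadjusted p under 0.05 downward and 1 upward.

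Breakdown of branched-chain amino acids had a median of −0.16 over 19 tested genes, with 0 called, 7 at an unadjusted p under 0.05 downward and 0 upward. Bcat2, the transaminase of the first step, had a log2 fold change of −0.48 (edgeR adjusted p = 0.0239), with −0.51 at 20% and −0.45 at 5% casein. Pccb and Mccc1, carboxylases further along the path, had log2 fold changes of −0.31 and −0.32 (adjusted p = 0.0533 and 0.0619). Clock genes had 18 tested members, 0 called, 7 at an unadjusted p under 0.05 downward and 1 upward, and a median of −0.34. Per3, a repressor of the clock, was at 797 to 901 normalized counts in NP and 224 to 400 in HF mice, but LP mice ran from 210 to 1280 and HF + LP mice from 145 to 623. Its log2 fold change was −1.31 (SE 0.31, edgeR adjusted p = 0.0178), and the wide spread within the LP group overlapped the high-fat values.

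**Figure D4:**
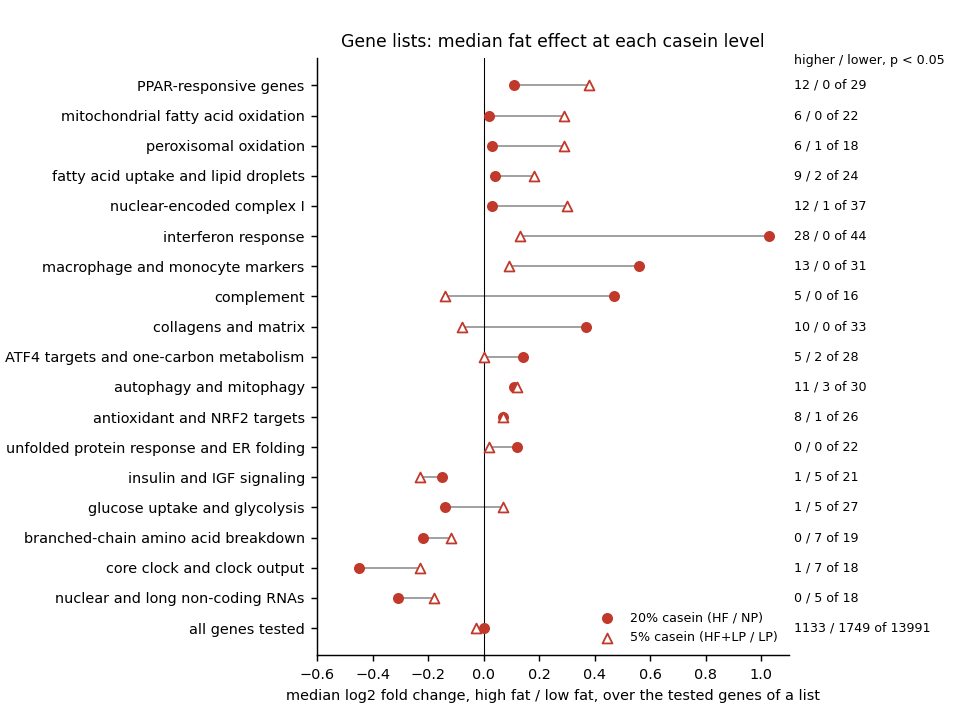
Median log2 fold change with fat (x axis) over the tested genes of each list, at 20% casein (filled circles) and at 5% casein (open triangles), with the number of genes at an unadjusted p under 0.05, higher and lower, beside the number tested. Fat oxidation lists lie further right at 5% casein, and interferon and macrophage lists further right at 20% casein. The lists for branched-chain amino acids and clock genes lie left of 0 at both. The medians at 5% casein include LP mice 13 and 20, and the part of these mice in them was not tested.

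Myh6, the main myosin heavy chain of the adult mouse heart (chromosome 14, 54941921 to 54966927), was at 49100, 62900, and 86200 normalized counts in high-fat and at 67700, 94900, and 111000 in low-fat mice. The overlap came from LP mouse 20 at 67700, since the other low-fat mice had 86700 or more. This was a log2 fold change of −0.55 (SE 0.10, edgeR adjusted p = 0.00323), with −0.70 at 20% and −0.40 at 5% casein. Mhrt, a non-coding RNA transcribed antisense next to Myh6, had a log2 fold change of −0.95 and was not called (edgeR adjusted p = 0.0114). Of 10 cardiomyocyte markers, Myh6 was the only call, and 3 had an unadjusted p under 0.05, all downward. Their summed level differed by −3640 CPM between the fat levels (exact permutation p = 0.19), and by −1910 without LP mouse 5 (exact permutation p = 0.408) to −4890 without LP mouse 13 (exact permutation p = 0.0688).

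Myh11, the myosin of smooth muscle (chromosome 16, 14194535 to 14291372), was at 108, 128, and 172 normalized counts in high-fat and at 204, 322, and 986 in low-fat mice. The value of 986 belonged to LP mouse 13, and the other low-fat mice did not exceed 494. Its log2 fold change was −1.54 (SE 0.22, edgeR adjusted p = 0.000421), and −1.27 without LP mouse 13 (adjusted p = 3.83e-05). Of 8 markers of pericytes and smooth muscle, 1 was called, and their summed level differed by −19.4 CPM (exact permutation p = 0.622), and by −42.1 (without HF + LP mouse 4) to −0.749 (without LP mouse 5) with 1 mouse left out. Tagln had a log2 fold change of −1.02 and Acta2 one of −0.43, neither of them called, and −0.72 and −0.20 without LP mouse 13. Smtn, a smooth muscle cytoskeletal protein (−0.75), and Notch3, a receptor of mural cells (−0.52), were called lower and were chosen after their values had been seen. The call of Notch3 was lost in 2 of the 20 fits that left out 1 mouse (highest edgeR adjusted p = 0.0114, without LP mouse 15).

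**Figure D5:**
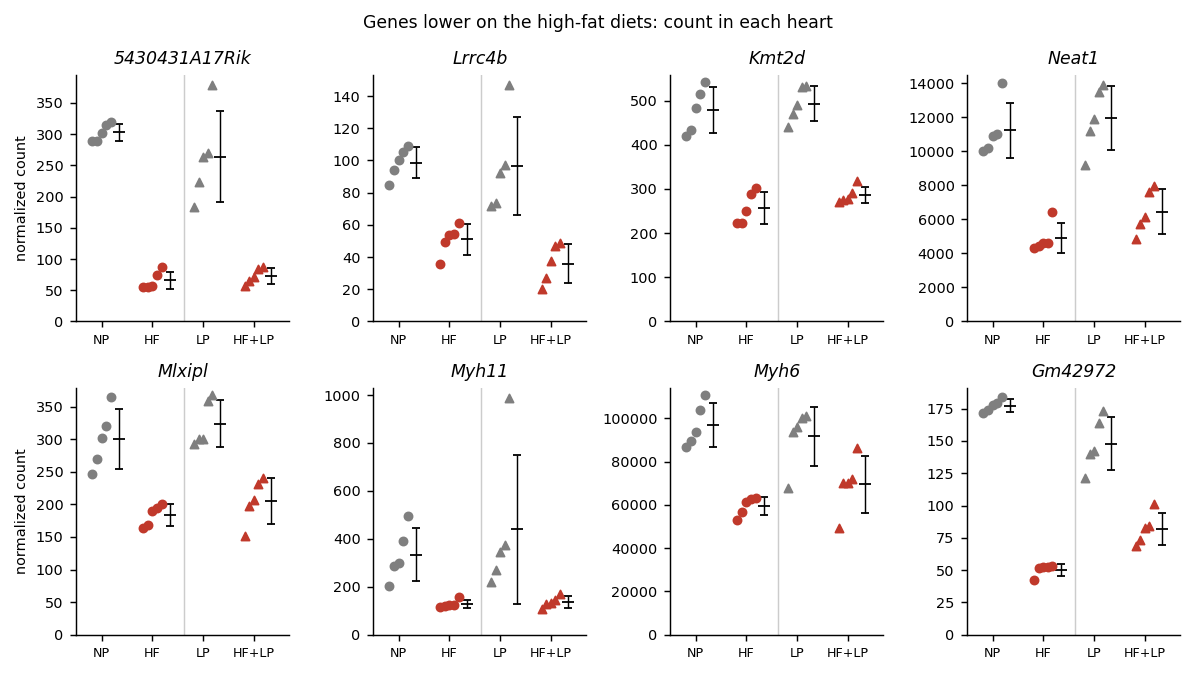
Normalized count (y axis, from 0) in each heart for 8 genes that were called lower, by diet group (x axis). Circles are mice at 20% and triangles mice at 5% casein, grey is low and red is high fat, and bars give the mean ± SD of 5 mice. All red points lie below all grey points except for Myh6, and LP mouse 13 stands alone at 986 for Myh11.

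In mitochondrial DNA, mt-Ti, the gene of the isoleucine transfer RNA (positions 3706 to 3774), was at 2720, 3310, and 5570 normalized counts in high-fat and at 239, 934, and 2350 in low-fat mice, without overlap. It rose by 1.79 on the log2 scale (SE 0.27, edgeR adjusted p = 0.000737). The gene shares its first bases with the end of mt-Nd1, a complex I subunit on the same strand that ends at position 3707, so reads of one may be counted on the other. mt-Nd1 itself had a log2 fold change of 0.13 with an adjusted p of 0.5, and of 0.07 without LP mouse 13. Of 8 tested protein genes of mitochondrial DNA, 0 were called, and the median was 0.20, with −0.13 at 20% and 0.40 at 5% casein.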

How the data were processed

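Left ventricular RNA of 20 mice was sequenced as 3′ end libraries (QuantSeq, oligo-dT primed, 75-base reads on a NextSeq 500), so transcripts without a poly(A) stretch and the bodies of long transcripts are measured poorly. The authors deposited raw read counts per Ensembl gene, 15956 genes in 20 libraries, aligned on a commercial platform, with GRCm38 and DESeq2 1.22.2 named in the submitters' processing notes. The counting program, its use of strand and its annotation are not given in the sources used here. Gene names, positions and types came from GENCODE M21 (15917 matched).

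Genes with low counts were removed by edgeR's filterByExpr, which left 13991. Counts were scaled by TMM and fitted with edgeR 4.0.16 (quasi-likelihood, R 4.3.3, limma 3.58.1) on fat and casein over all 20 libraries. The fat effect at each casein level and their difference came from a model of the 4 diet groups. Calls needed an adjusted p (Benjamini-Hochberg) below 0.01 and an average above 50 normalized counts. Summed values per library were compared by a two-sided exact permutation test within casein levels (63504 arrangements, adjusted over 15 measures), and no adjusted value other than that of body weight (0.000472) was under 0.05. Each library of a group carries its own animal number, and the label of LP mouse 5 also carries a sample number, unlike the other labels. No libraries of a group were alike within sampling noise (smallest chi-square per gene 18.5), which alone cannot show that they came from separate mice. Precision was limited by 5 mice per diet.

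The named genes were the 12 higher and 12 lower called genes of smallest p with a gene name, 4 clone-named transcripts, up to 4 genes of each list and up to 5 by the difference between casein levels. Others are said to be chosen after their values were seen. The comparison, the members and the lists were chosen with earlier results of these data known. On simulated counts for 13991 genes with 100 genes changed at each size, edgeR recovered 32 genes changed by 0.5 and 82 changed by 1 on the log2 scale. Alternatives were other scaling, DESeq2 1.42.0, other filters and thresholds, covariates, a replicate block and leaving out mice. Promoter windows came from RefSeq (GRCm38.p6). Windows on 1 chromosome and some genes of mitochondrial DNA were not analysed here. Some genes that the naming rule selects are not reported here.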

Additional observations from a re-analysis of the deposited data

Results flagged for a closer look

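Within a diet, 12 of 116 groups of 5 mice, over 24 genes and 5 library values, held a mouse whose gap to the nearest other mouse was more than 0.71 of the group's range. Chance marks about 1 in 20 groups. Normalized counts of Neat1 were 14000 in NP mouse 4 (9990 to 11000 in the other NP mice) and 6440 in HF mouse 2 (4300 to 4620). HF mouse 2 also had the highest Myh11 of its diet at 158 (114 to 126 in the others), the highest Egln3 at 1430 (865 to 1020), and the lowest Insr at 472 (495 to 502).

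Myh11 was at 986 in LP mouse 13, against 221 to 375 in the other LP mice, and the summed atrial markers of the same mouse were at 18100 CPM (counts scaled to library totals) (147 to 5350 in the others). The summed atrial markers of HF + LP mouse 3 were at 5260 (53.0 to 1290 in the others). The lowest values were Gm42972 in HF mouse 4 at 42.2 (51.4 to 53.4), Cd36 in HF mouse 1 at 8930 (10100 to 10300), and Myh6 in LP mouse 20 at 67700 (93500 to 101000). Bnip3 was highest in NP mouse 6 at 2220 (1790 to 1910).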

How the results depend on the processing

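The 130 calls of the fat effect, all of the same sign at both casein levels, became 385 in DESeq2 (129 of the 130 among them), 483 at an adjusted p under 0.05, and 2 with body weight as a covariate. Leaving out 1 mouse gave 85 to 175 calls, the fewest without LP mouse 15 or HF mouse 4 and the most without LP mouse 13. The 37 calls at 20% casein became 163 in DESeq2, 157 at an adjusted p under 0.05, 61 when only the 10 libraries of that level were fitted, 76 without LP mice 13 and 20, and 20 (without NP mouse 6) to 69 (without LP mouse 13) with 1 mouse left out. The 14 calls at 5% casein became 84 in DESeq2, 45 at an adjusted p under 0.05, 5 with the library-name number as a covariate, 5 with the summed atrial markers as a covariate, 0 in the 10 libraries of that level, 4 without LP mice 13 and 20, and 1 (without HF + LP mouse 2) to 16 (without HF + LP mouse 3) with 1 mouse left out. The difference between casein levels gave 0 calls with each mouse left out and 1 in DESeq2. The fits without both LP mice and with the atrial covariate were chosen after seeing the data. With the animal number as a replicate block, 18 genes were called for fat (9 higher and 9 lower, 11 of them among the 130), 2 at 20% and 0 at 5% casein. The numbers belong to different mice, and the 16 same-numbered pairs of libraries had correlations from −0.548 to 0.487 (median −0.00904, and −0.0196 for the other pairs). These values cannot show whether same-numbered mice shared more than a number. Of 122 named genes, 120 kept their direction in every alternative run, and of the 68 called ones 41 kept the call with each mouse left out. Prdx1, a peroxidase that was not called (log2 fold change 0.32), went to −0.01 with body weight as a covariate. Map4, near 0 (0.03), went to −0.14 with the replicate block, between −0.06 (without LP mouse 13) and 0.08 (without LP mouse 5) with 1 mouse left out, −0.10 without both LP mice, and −0.03 with the atrial covariate. The median of the lymphocyte and granulocyte list turned from −0.16 to 0.19 without LP mouse 20, was at −0.39 without HF mouse 3, and went to 0.35 without both LP mice, and without both the lipogenesis list turned to 0.07 and the liver X receptor list to 0.01. The causes were not tested.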

Other observations

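Among the lists not described above, those without a call in either direction included cholesterol synthesis (20 tested, 0 upward and 1 downward at an unadjusted p under 0.05, median log2 fold change −0.07), liver X receptor targets (10 tested, 2 and 1, −0.12), genes of MHC class II, which present antigen (6 tested, 0 and 0, 0.06), and lymphocyte and granulocyte markers (14 tested, 1 and 4, −0.16). Complement genes, also without a call, had 5 upward and 0 downward of 16, with a median of 0.47 at 20% and −0.14 at 5% casein. Antioxidant genes controlled by NRF2 had 8 upward and 1 downward of 26 (median 0.11) and 0 calls. Glucocorticoid-responsive genes had 5 upward and 1 downward of 18, with Cdkn1a as the 1 call, and the hypertrophy and fetal gene list 2 upward and 2 downward of 20, with Myh6 as the lower and Cdkn1a as the higher call.

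Markers of other cells did not pass the test for fat outside the genes already named. Endothelial markers had 2 upward of 8 at an unadjusted p under 0.05, erythroid markers 2 upward of 6 (median 0.50), and white adipocyte markers 3 downward of 8 (median −2.28, with −0.18 at 20% and −4.69 at 5% casein). LP mice 13 and 20 stood apart in these markers (Adipoq 82.3 and 31.4 CPM, against 0.585 to 1.80 in the other LP mice), and the summed white adipocyte level differed by −24.7 CPM (exact permutation p = 0.906) and by 108 CPM without LP mouse 13 (exact permutation p = 0.409). Fibroblast (8 tested), atrial (6), brown adipocyte (4), mesothelial (6), skeletal muscle (3), and Schwann cell markers (5) had 0 genes at an unadjusted p under 0.05.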
